A study of Mus musculus with 8 samples.

Results

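Chemokine ligands that activated CD8+ T cells can make were followed in OT-I T cells stimulated with or without TGFβ. The set has 8 genes, namely Ccl1, Ccl3, Ccl4, Ccl5, Xcl1, Cxcl10, Ccl17 and Ccl22, chosen by name from the 47069 gene IDs of the deposited table, in which each name occurs in 1 row. The transgenic T cell receptor of OT-I cells recognises an ovalbumin peptide, of which OVA-T4 (SIITFEKL) is a variant that the receptor binds with low affinity. Lymph node cells with the OT-I receptor, as the labels give their source, were cultured for 24 h with 10 nM OVA-T4 alone (4 biological replicates) or with 10 nM OVA-T4 and 5 ng/ml recombinant human TGFβ (4 biological replicates). Both groups therefore received antigen, and unstimulated cells were not analysed here. The methods name both OT-I and OT-I Rag1-/- mice, age- and sex-matched, without saying which of them gave these samples, and describe no sort of the CD8+ cells. The sample labels give the cells as CD8 T cells of wild-type genotype.

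Chemokines are small secreted proteins that bind G protein-coupled receptors on other leukocytes and direct their movement. They are classed by the spacing of the cysteines near their amino terminus into CC, CXC, C and CX3C families. Activated CD8+ T cells are known to secrete Xcl1, the ligand of Xcr1 on cross-presenting dendritic cells, together with Ccl3, Ccl4 and Ccl5, which attract monocytes and T cells. Ccl1 is the ligand of Ccr8. Ccl17 and Ccl22 bind Ccr4 and are best known as products of dendritic cells, and Cxcl10 is an interferon-induced ligand of Cxcr3.

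The sequence before the transcription start was taken from RefSeq (GRCm38.p6, the build of the mm10 files) for the 6 genes of the set that could be matched, Ccl1, Ccl3, Xcl1, Cxcl10, Ccl17 and Ccl22. Ccl4 and Ccl5 were not among them. The 250 bases before the start are shown for the 3 genes whose mRNA passed the test below (Ccl1, Xcl1 and Ccl3) and, beside them, for Cxcl10, whose mRNA did not and whose window held the largest number of motif matches. They are written 5′ to 3′ on the strand of the gene, and capitals mark motif matches on either strand.
Ccl1 (chr11:82179813-82180062, minus strand): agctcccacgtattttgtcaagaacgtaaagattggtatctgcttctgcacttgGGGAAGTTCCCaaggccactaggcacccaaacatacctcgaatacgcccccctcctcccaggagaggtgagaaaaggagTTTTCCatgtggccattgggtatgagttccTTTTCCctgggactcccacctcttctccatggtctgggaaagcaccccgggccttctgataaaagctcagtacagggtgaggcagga
Xcl1 (chr1:164935523-164935772, minus strand): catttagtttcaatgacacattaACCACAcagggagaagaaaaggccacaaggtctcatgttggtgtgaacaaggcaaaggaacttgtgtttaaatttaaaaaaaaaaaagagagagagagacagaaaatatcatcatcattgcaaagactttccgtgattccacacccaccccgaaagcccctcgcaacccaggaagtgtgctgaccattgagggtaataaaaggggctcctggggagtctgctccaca
Ccl3 (chr11:83649379-83649628, minus strand): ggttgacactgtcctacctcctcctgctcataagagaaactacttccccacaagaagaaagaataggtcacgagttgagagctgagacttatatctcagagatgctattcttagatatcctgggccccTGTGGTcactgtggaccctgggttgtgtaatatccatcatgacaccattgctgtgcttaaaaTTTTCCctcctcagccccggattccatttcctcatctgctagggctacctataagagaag
Cxcl10 (chr5:92348890-92349139, minus strand): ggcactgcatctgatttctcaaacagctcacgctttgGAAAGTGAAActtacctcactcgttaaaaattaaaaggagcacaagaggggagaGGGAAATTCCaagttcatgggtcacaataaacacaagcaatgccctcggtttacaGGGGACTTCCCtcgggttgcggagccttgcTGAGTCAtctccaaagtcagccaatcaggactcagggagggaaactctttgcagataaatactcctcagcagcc

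Matches to the 10-letter κB consensus, the recognition sequence of NF-κB, were in the windows of Ccl1 (2 matches that overlap each other, 1 on each strand) and Cxcl10 (3 matches, of which 2 overlap), and 7.25% of all 32851 RefSeq start sites had 1 or more in a window of the same length. The NFAT core GGAAAA, which reads TTTTCC on the other strand, had 2 matches before Ccl1 and 1 before Ccl3, against 20.4% of all windows with a match. The Runx letters TGTGGT were found 1 time before Ccl3 and, as ACCACA, 1 time before Xcl1 (14.0% of all windows). Only the Cxcl10 window of the 6 held the interferon-stimulated response element ISRE (2.98% of all windows) and the AP-1 letters TGANTCA (6.75%). The Smad box CAGACA had no match in the 4 windows printed and 1 match each before Ccl17 and Ccl22, with a match in 17.1% of all windows. These matches describe the letters of the windows and were not tested for binding. The Ccl17 and Ccl22 windows lie on chromosome 8, on the plus strand.

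Values are FPKM, reads scaled to the length of the gene and to the total of the library. Levels can therefore be compared between genes and, approximately, between libraries. The FPKM of a library summed to 767823.6 to 803648.5 under OVA-T4 and to 754392.8 to 766687.2 under OVA-T4 + TGFβ, so other scalings were tried as well. The reads behind the FPKM could be solved for 23841 of the 23842 gene IDs above 0, which gave library totals of 35586261 to 41597929 reads. At that depth the 8 genes had 2 to 7399 reads in a library, with the fewest for Ccl1 under OVA-T4 alone (2 to 31), Ccl17 (9 to 54) and Cxcl10 (12 to 90). Averaged over the libraries, all 8 genes were above the filter of 0.5 FPKM. Ccl1 averaged 0.316 FPKM under OVA-T4 and passed the filter only through the OVA-T4 + TGFβ libraries (5.88 FPKM), the group in which it was higher. The values were put on the scale log2(FPKM + 0.5) and the groups tested with limma over the 12879 genes that passed the filter, with Benjamini-Hochberg adjusted p-values over all of them, and a gene was called at an adjusted p under 0.05. On this scale fold changes of low genes are understated. The groups lay apart on the first principal component (64.7% of the variance). The CD8 T cell markers were high in all libraries, with Cd8a at a mean of 384 FPKM under OVA-T4 and 510 FPKM under OVA-T4 + TGFβ and Cd4 at 1.08 and 1.07 FPKM.

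With TGFβ 2 of the 8 ligand mRNAs, Ccl1 and Xcl1, were higher and 1, Ccl3, was lower. The other 5, Ccl4, Ccl5, Cxcl10, Ccl17 and Ccl22, did not pass the test. Among all genes tested 30.7% were called higher, 20.2% lower and 51.0% in either direction, so the share called among the ligands, 3 of 8, was not above that of the transcriptome. The median log2 fold change of the 8 genes was 0.00, against 0.08 for all genes tested. Of all calls 60.3% were higher, a share that was 47.5% after median of ratios scaling and 46.8% after quantile normalization, which put the median of all genes at -0.02 and -0.03.

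**Figure D1:**
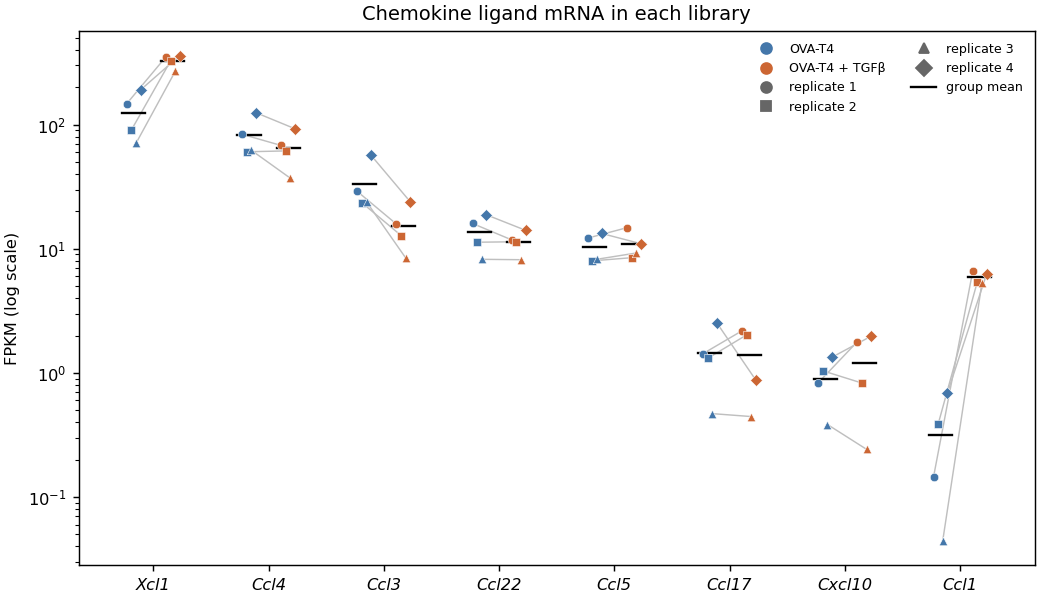
FPKM of the 8 chemokine ligand genes (log axis) in each of the 8 libraries, with 1 symbol per replicate number, grey lines between libraries of the same number and black bars for group means. The groups part for Xcl1 (70.9 to 191 FPKM against 269 to 361 FPKM) and Ccl1 (0.0445 to 0.687 FPKM against 5.29 to 6.59 FPKM) and overlap for the other 6.

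Xcl1, the only ligand of the C family in the set, was the most abundant of the 8 in every library. It lies on chromosome 1 of GRCm38 from 164931644 to 164935527 on the minus strand. Its level was 148, 90.8, 70.9 and 191 FPKM in replicates 1 to 4 of OVA-T4, and 353, 327, 269 and 361 FPKM in those of OVA-T4 + TGFβ. Every library with TGFβ was above every library without it, as for 29.1% of all genes tested (48.1% did not overlap in either direction). The means were 125 ± 54.7 FPKM (SD, n = 4) and 327 ± 41.6 FPKM (SD, n = 4), a ratio of 2.62. The log2 fold change was 1.48 ± 0.28 (SE), with an adjusted p of 0.00186 in the limma fit, and the exact permutation test gave p = 0.0286, two-sided, the smallest that 4 libraries against 4 allow. A non-coding gene on the other strand, Gm20743, overlaps Xcl1 and was at 0.361 to 3.5 FPKM, and the strand setting of the counting is not given in the sources used here, so reads of the pair might be mixed.

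Ccl1, the ligand of Ccr8, was the least abundant of the set under OVA-T4 and had the largest change. It lies on chromosome 11, and GENCODE M21 places it from 82176657 to 82305690 on the minus strand. The RefSeq window printed above (82179813 to 82180062) lies inside this span, so RefSeq and GENCODE differ in where the gene starts. Under OVA-T4 alone it was at 0.145, 0.386, 0.0445 and 0.687 FPKM in replicates 1 to 4, from 6, 15, 2 and 31 reads. With TGFβ it was at 6.59, 5.42, 5.29 and 6.23 FPKM, from 286, 209, 226 and 242 reads. All 4 TGFβ libraries were thus far above the others, and the spread among them was small. The means were 0.316 ± 0.286 FPKM (SD, n = 4) and 5.88 ± 0.63 FPKM (SD, n = 4), a ratio of 18.6. The log2 fold change on log2(FPKM + 0.5) was 3.03 ± 0.23 (SE), with an adjusted p of 1.17e-05 in the limma fit. Its size depends on the pseudocount, with 4.13 at a pseudocount of 0.1 FPKM and 2.41 at 1 FPKM. Limma voom on the solved reads, an alternative chosen after seeing the data, gave 4.74 (adjusted p = 6.26e-05).

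Ccl3 and Ccl4, which encode MIP-1α and MIP-1β and are neighbours on chromosome 11 (83647844 to 83649355 on the minus strand and 83662584 to 83664683 on the plus strand), are both inflammatory CC ligands. Ccl3 was at 29.0, 23.5, 23.9 and 56.6 FPKM in replicates 1 to 4 of OVA-T4, and at 15.8, 12.8, 8.44 and 23.9 FPKM in those of OVA-T4 + TGFβ. The library of replicate 4 with TGFβ lay within the range without TGFβ, so the groups overlap, while each TGFβ library was below the OVA-T4 library of its own number. The means were 33.2 ± 15.8 FPKM and 15.2 ± 6.51 FPKM (SD, n = 4 each), and the log2 fold change was -1.09 ± 0.345 (SE), with an adjusted p of 0.025 in the limma fit. The exact permutation test, without pairing, gave p = 0.0857, two-sided, so the call rests on the limma fit. The call was lost without OVA-T4 + TGFβ replicate 2 (log2 fold change -1.05, adjusted p = 0.0577), without OVA-T4 + TGFβ replicate 3 (-0.85, adjusted p = 0.0573) and with no filter on low values (adjusted p = 0.0628), and with the replicate number as a block it was adjusted p = 0.000113.

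Ccl4 was the most abundant of the CC ligands. It was at 83.7, 60.5, 62.3 and 125 FPKM in replicates 1 to 4 of OVA-T4 and at 68.0, 61.5, 37.0 and 92.7 FPKM in those of OVA-T4 + TGFβ. The ranges overlap, and 3 of 4 TGFβ libraries were below the OVA-T4 library of the same number, with replicate 2 at nearly the same level. The log2 fold change was -0.36 (95% interval -1.03 to 0.31, adjusted p = 0.337 from limma) and did not pass the test. With the replicate number as a block the interval was -0.62 to -0.11 and Ccl4 was called lower (adjusted p = 0.0233), where 25.4% of all genes were called lower, 35.5% higher and 60.8% in either direction. The block left 2 of the 8 ligands higher and made 2 lower. The labels state no pairing. Libraries of equal replicate number were treated as pairs by the check given with the processing, which does not settle the pairs.

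**Figure D2:**
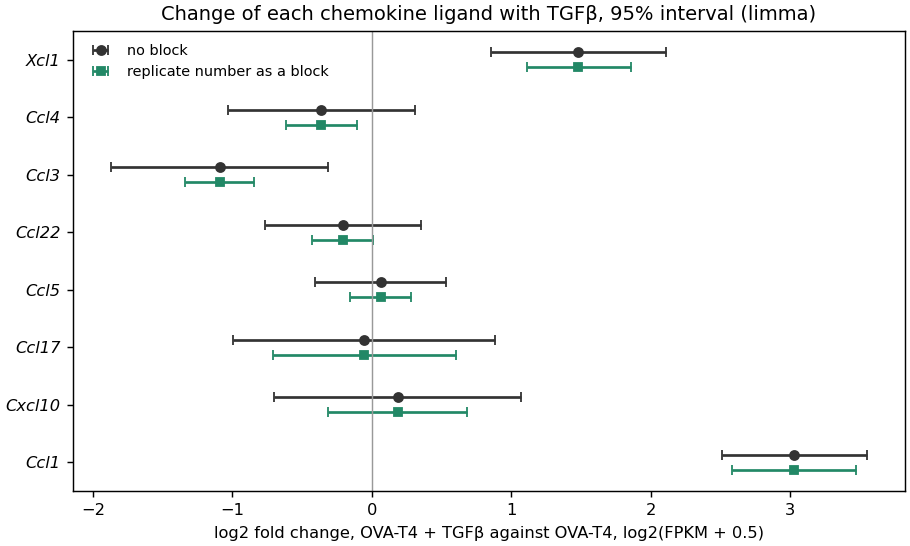
Log2 fold change of each ligand with TGFβ on log2(FPKM + 0.5), with its 95% interval from limma, without a block (circles) and with the replicate number as a block (squares). Xcl1 (1.48) and Ccl1 (3.03) lie to the right of 0 and Ccl3 (-1.09) to the left under both fits, and Ccl4 (-0.36) clears 0 with the block alone.

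Within a library, levels of Ccl3 and Ccl4 kept a narrow ratio, and that ratio differed between the groups. Ccl3 was at 0.347 to 0.453 of the Ccl4 level under OVA-T4 and at 0.209 to 0.258 of it under OVA-T4 + TGFβ, with no overlap. On the log2 scale the ratio was -1.36 ± 0.16 (SD, n = 4) and -2.11 ± 0.125 (SD, n = 4), and the exact permutation test of the difference gave p = 0.0286, two-sided, the smallest possible. The ratio was singled out after its values were seen, from 28 ratios between the 8 genes, over which its adjusted p was 0.0533. Of the 12679 tested genes above 0 in all libraries, 0.615% had a ratio to Ccl4 that was lower with TGFβ without overlap and 19.0% one that did not overlap in either direction. Of the 28 ratios 15 did not overlap between the groups, and 12 of these had Ccl1 or Xcl1 in them. The other 3 had Ccl3 in them, set against Ccl4, Ccl5 and Ccl22. A narrow ratio was not particular to Ccl3 and Ccl4. The log2 ratio of Xcl1 to Ccl22 had an SD of 0.147 under OVA-T4 and 0.152 under OVA-T4 + TGFβ (n = 4 each). It was higher by 1.7 with TGFβ, without overlap.

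Ccl5 (RANTES), another inflammatory CC ligand, lies on chromosome 11 from 83525778 to 83530518. Its level was 12.2, 8, 8.24 and 13.3 FPKM in replicates 1 to 4 of OVA-T4 and 14.8, 8.48, 9.25 and 11 FPKM in those of OVA-T4 + TGFβ. The groups overlap, and the log2 fold change was 0.06 (95% interval -0.41 to 0.53, adjusted p = 0.817 from limma). With the block the interval narrowed to -0.15 to 0.28.

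Ccl22 and Ccl17, the Ccr4 ligands, are neighbours on chromosome 8 (94745590 to 94751699 and 94810453 to 94812036). Ccl22 was at 16, 11.3, 8.23 and 18.8 FPKM in replicates 1 to 4 of OVA-T4 and 11.8, 11.4, 8.17 and 14.1 FPKM in those of OVA-T4 + TGFβ. The log2 fold change was -0.21 (95% interval -0.77 to 0.35, adjusted p = 0.51 from limma), and replicates 2 and 3 were at nearly the same level with and without TGFβ. Ccl17 was about an order of magnitude lower, at 1.43, 1.31, 0.47 and 2.53 FPKM and, with TGFβ, 2.19, 2.03, 0.445 and 0.87 FPKM. Its pairs moved in both directions, 2 up and 2 down, and the log2 fold change was -0.05 (95% interval -0.99 to 0.88, adjusted p = 0.924 from limma). Changes within these bounds were not detectable at this depth and spread.

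Cxcl10, the interferon-induced CXC ligand, lies on chromosome 5 from 92346638 to 92348889. It was at 0.834, 1.04, 0.384 and 1.34 FPKM in replicates 1 to 4 of OVA-T4 and 1.79, 0.828, 0.242 and 1.98 FPKM in those of OVA-T4 + TGFβ. Replicates 1 and 4 were higher and replicates 2 and 3 lower with TGFβ, and the log2 fold change was 0.19 (95% interval -0.70 to 1.07, adjusted p = 0.719 from limma). Of 25 interferon response genes 20 were tested, and of these 9 were higher, 5 lower and 6 without a call, with a median log2 fold change of 0.25. Over all genes tested 30.7% were called higher and 20.2% lower, and the list was not tested as a set. Among them Isg20, an exonuclease, went from 3.25 to 11.6 FPKM (1.70 on the log2 scale, adjusted p = 1.78e-05 from limma). The GTPase gene Gbp2 (-0.54) and the ubiquitin-like modifier gene Isg15 (-0.84) were lower. The related Cxcr3 ligand Cxcl9 was at 0.765 ± 0.246 and 0.712 ± 0.392 FPKM (SD, n = 4 each) and did not pass the test.

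In bulk RNA the cell that made a transcript is not known, and fewer cells of a type cannot be told apart from less RNA per cell. Ccl17, Ccl22 and Cxcl10 are also made by dendritic cells and macrophages, so the markers of these cells were set beside them. The summed level of 14 dendritic cell markers was 89.2 to 121 FPKM under OVA-T4 and 120 to 157 FPKM under OVA-T4 + TGFβ. Of these 14, 7 were tested, 5 were higher and 0 lower, with Itgax (0.262 and 1.74 FPKM) and H2-Aa of MHC class II (4.22 and 9.79 FPKM) showing the largest changes. The other 7, with the defining markers Zbtb46, Flt3, Clec9a and Siglech and with Cd209a, Clec10a and Ciita, were all under a mean of 0.5 FPKM in both groups. The summed level of 12 macrophage and monocyte markers was 17.9 to 33.5 FPKM and 23.2 to 81.2 FPKM, with 5 tested, 2 higher (Lyz2 at 1.91 and C1qb at 1.21) and 0 lower. In the blocked fit 4 of these 5 were higher, with Cd68 (adjusted p = 0.00237 from limma) and Cd14 (adjusted p = 0.00568) added. The macrophage markers Csf1r and Adgre1 were at a mean of no more than 0.536 FPKM in either group. Of 10 B cell markers, at a sum of 209 to 242 FPKM and 264 to 283 FPKM, 4 were tested and 4 were higher, and Ms4a1 was at 0 in every library. Of 9 NK cell markers (1.97 to 5.42 and 3.89 to 8.97 FPKM) 2 were tested and 0 called without the block, and 2 of 2 were higher with it (Fcer1g, adjusted p = 0.0136, and Tyrobp, adjusted p = 0.0149, from limma). Of 4 CD4 T cell markers 3 were tested and 1 was higher, and of 8 stromal and endothelial markers 2 were tested and 1 was higher, with the other (Pecam1) lower under the block (adjusted p = 0.0131 from limma). The sum of 10 CD8 T cell markers was 2680 to 3010 FPKM and 3280 to 3500 FPKM, with 7 higher and 1 lower. Itgax, C1qb, Cd14, Cd79a and Pdpn averaged under 0.5 FPKM under OVA-T4 and passed the filter only through the OVA-T4 + TGFβ libraries. The counts of markers called higher therefore lean upward by the filter. Of all genes tested, 30.7% were called higher and 20.2% lower without the block, and 35.5% and 25.4% with it. The part of other cells in the ligand levels was not tested.

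Ranked by mean FPKM under OVA-T4, the order was Xcl1, Ccl4, Ccl3, Ccl22, Ccl5, Ccl17, Cxcl10 and Ccl1. The values of Xcl1 and Ccl4 overlapped across libraries, as did those of Ccl22 and Ccl5, of Ccl17 and Cxcl10 and of Cxcl10 and Ccl1, although Xcl1 was above Ccl4 in 4 of 4 libraries. With TGFβ the order was Xcl1, Ccl4, Ccl3, Ccl22, Ccl5, Ccl1, Ccl17 and Cxcl10. There Xcl1 no longer overlapped Ccl4, Ccl3 overlapped Ccl22, and Ccl22 overlapped Ccl5. The only change of rank was that Ccl1 moved above Ccl17 and Cxcl10, which it did not overlap.

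**Figure D3:**
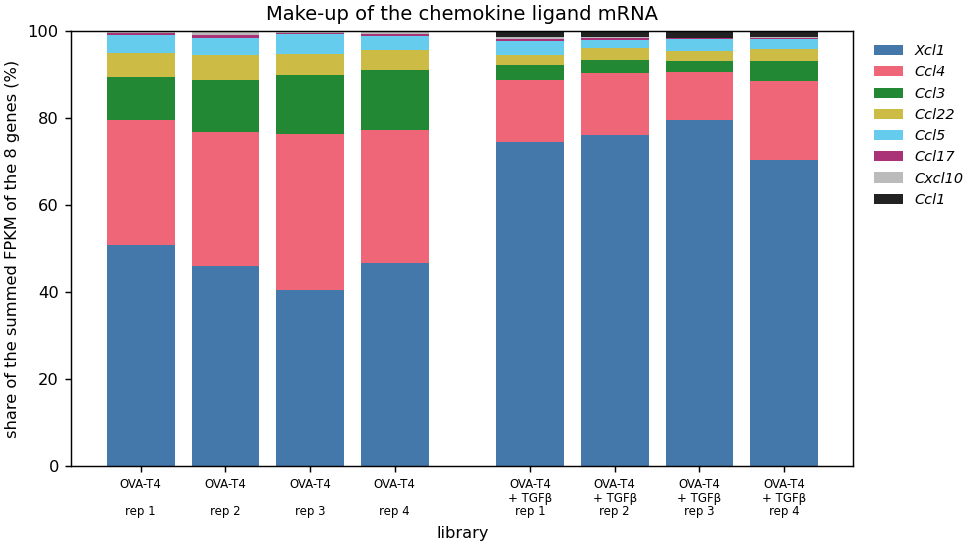
Share of each ligand in the summed FPKM of the 8 genes (%), as 1 stacked bar per library. Xcl1 makes up 40.6 to 50.8% of the sum in the OVA-T4 libraries and 70.5 to 79.6% in the OVA-T4 + TGFβ libraries, and Ccl3 10.0 to 13.8% and 2.50 to 4.67%.

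The make-up of the ligand mRNA shifted as a whole towards Xcl1. Summed over the 8 genes, the level was 174 to 409 FPKM under OVA-T4 and 338 to 511 FPKM under OVA-T4 + TGFβ, which overlap. Xcl1 held 40.6 to 50.8% of this sum without TGFβ and 70.5 to 79.6% with it. Ccl4 went from 28.7 to 35.7% of the sum to 11 to 18.1%, and Ccl1 from at most 0.196% to 1.22 to 1.56%. These shares depend on each other, since a larger Xcl1 lowers the others.

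The ligands deviated together from library to library within a group. The share of all genes that did the same was not counted, so the pattern is not shown to be particular to the ligands. In OVA-T4 replicate 4 all 8 genes were at their highest of the 4 libraries, with a median deviation of 0.63 from the group mean on the log2 scale, and in OVA-T4 replicate 3 all 8 were below the group mean (median -0.57). In OVA-T4 + TGFβ replicate 3 all 8 genes were again below the mean (median -0.58), and 7 of them were at their lowest. OVA-T4 + TGFβ replicates 4 and 1 held the highest value of 5 and of 3 genes. Replicate 4 thus held the highest value in both groups for 5 genes, and replicate 3 was below the mean in both groups for all 8. The lowest value of Ccl3 and of Ccl4 was in replicate 2 of OVA-T4 but in replicate 3 of OVA-T4 + TGFβ. The standard error of the Ccl3 log2 fold change was 0.345 without a block and 0.105 when the number was a block.

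**Figure D4:**
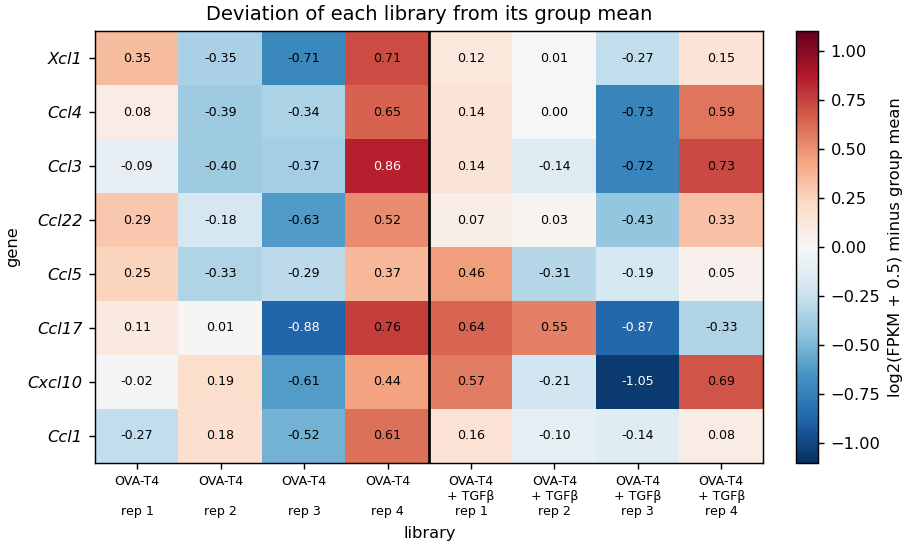
Deviation of log2(FPKM + 0.5) from the group mean for each ligand (rows) and library (columns), in red above and in blue below the mean. Replicate 3 is below the mean for all 8 genes in both groups, and OVA-T4 replicate 4 is above it for all 8.

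For each ligand the 2 protein-coding genes with the most similar profile were sought among 10169 genes averaging 1 FPKM or more, by the root mean square difference of log2(FPKM + 0.5) after centring over the 8 libraries. Xcl1 was closest to the potassium channel gene Kcnc1 (0.0957) and to Nol4l (0.15). Ccl1 was closest to Fcrl1 (0.22) and to the acyl-CoA synthetase gene Acsbg1 (0.23). Ccl3 was closest to the glycine transporter gene Slc6a9 (0.204) and to Ms4a4c (0.229). Ccl4 was closest to Cd69 (0.142), an early activation antigen of T cells, and to Tnfsf14 (0.145), which encodes the cytokine LIGHT. Ccl5 had Arsg (0.0995) and Cry2 (0.117) nearest, and Ccl22 had Ncs1 (0.0873) and the DNA glycosylase gene Ung (0.111). Cxcl10 was nearest to Apoe (0.244), an apolipoprotein of macrophages, and to Nckap5l (0.276). Apoe was at 13 to 19.9 FPKM under OVA-T4 and 12.1 to 33.0 FPKM under OVA-T4 + TGFβ, lowest in replicate 3 of both groups, as Cxcl10 was. Xcl1, Ccl1, Ccl17 and Ccl22 were also lowest in replicate 3 of both groups, so this trait is not particular to Cxcl10. Ccl17 was nearest to Shb (0.288) and to Arhgap29 (0.389), the poorest likeness of the set.

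The receptors of these ligands were listed by known pairing. Of 10 such genes 4 passed the filter, and 2 of those described here, Ccr8 and Cxcr3, were higher. The share called higher over all genes tested was 30.7%, and 35.5% with the block. Ccr8, the receptor of Ccl1, was at 2.13, 1.57, 1.21 and 2.33 FPKM in replicates 1 to 4 of OVA-T4 and 103, 91.0, 88.2 and 120 FPKM in those of OVA-T4 + TGFβ (5.47 on the log2 scale, adjusted p = 7.96e-08 from limma), so ligand and receptor of this pair were both higher with TGFβ. Cxcr3, the receptor of Cxcl10, was at 15.2 to 21.2 and 32.9 to 38.7 FPKM (0.92, adjusted p = 8.25e-05). Ccr4, the receptor of Ccl17 and Ccl22, was at 1.24 ± 0.644 and 2.16 ± 0.886 FPKM (SD, n = 4 each) and was called higher with the block (adjusted p = 0.00404 from limma) and not without it (adjusted p = 0.115). Xcr1, the receptor of Xcl1, was under the filter, as were Ccr1, Ccr3, Ackr1, Ackr2 and Ackr4.

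**Figure D5:**
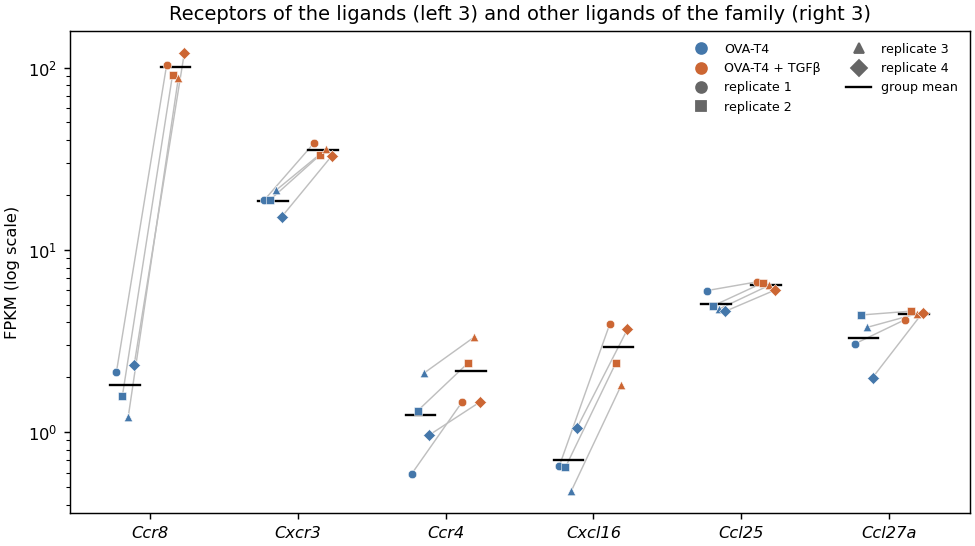
FPKM (log axis) in each library of 3 receptors of the ligands and of the 3 other chemokine ligands that averaged 1 FPKM or more, with 1 symbol per replicate number and black bars for group means. Ccr8 rises from 1.81 to 101 FPKM on average and Cxcr3 from 18.5 to 35.1 FPKM, and neither overlaps between the groups.

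Among the other 33 chemokine ligand genes of the mouse that were listed, 27 were under a mean of 0.5 FPKM, and 11 of these were listed at 0 in all 8 libraries. Of the 6 tested, 2 were higher, 0 were lower and 4 were not called, with a median log2 fold change of 0.35. Over all genes tested the shares were 30.7% higher and 20.2% lower. Cxcl16, a ligand of Cxcr6 that is made as a membrane-bound protein, was at 0.655, 0.64, 0.475 and 1.06 FPKM in replicates 1 to 4 of OVA-T4 and 3.9, 2.38, 1.82 and 3.66 FPKM in those of OVA-T4 + TGFβ, without overlap (1.48 on the log2 scale, adjusted p = 0.000721 from limma). Ccl25, the ligand of Ccr9, went from 5.06 to 6.42 FPKM on average (0.32, adjusted p = 0.0175), a call that was lost after median of ratios scaling (0.23, adjusted p = 0.0597), after quantile normalization (0.12, adjusted p = 0.286) and without OVA-T4 + TGFβ replicate 1 (0.305, adjusted p = 0.0511). Ccl27a, which has near-identical copies in the mouse genome and is therefore uncertain, was at 3.3 ± 1.03 and 4.44 ± 0.206 FPKM (SD, n = 4 each) and was not called.

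Cytokine genes that activated CD8+ T cells express moved in both directions as well. Of 20 on the list 13 were tested, 3 were higher, 2 were lower and 8 were not called, with a median log2 fold change of 0.11. For this list and those below, the shares called over all genes tested were 30.7% higher and 20.2% lower. With the block they were 35.5% and 25.4%. No list was tested as a set. Lif, a cytokine of the interleukin-6 family, fell from 7.5 to 1.23 FPKM (-2.22, adjusted p = 0.000196 from limma) and Fasl, the ligand of the death receptor Fas, from 3.78 to 0.793 FPKM (-1.75). Tnfsf11, which encodes RANKL, was higher (0.70), as was Il16 (0.59). With the block 5 were lower, with Ifng (-0.64, adjusted p = 0.00185), Tnf (-0.38, adjusted p = 0.0261) and Tnfsf14 (-0.26, adjusted p = 0.032) added, and 4 were higher. Of 15 NF-κB pathway genes, all tested, 9 were higher and 1 lower, with Ikbke (0.90) and Bcl3 (0.89) the highest and the inhibitor gene Nfkbib (-0.29) lower. Of 16 tested T-box, Runx and related transcription factors of 17, 9 were higher and 5 lower. Runx1 (2.68) and Klf2 (1.18) had the highest changes among them, and Eomes (-3.87) and Batf (-0.98) the lowest.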

How the data were processed

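Poly(A) RNA of 8 libraries was sequenced. The authors deposited FPKM per gene; the processing notes name CASAVA, HISAT2, HTSeq and mm10, without versions. Labels and methods differ in the extraction kit they name. Whether replicates came from separate mice is not given, so p-values measure the spread between these samples.

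Whole reads were solved from the FPKM (tolerance 0.005 reads) for 23841 of 23842 gene IDs above 0 with the smallest fitting length, so totals could be understated by a common factor. Log2(FPKM + 0.5) was tested with limma 3.58.1 in R 4.3.3 (trended prior, two-sided), over the 12879 genes that averaged 0.5 FPKM or more. The fit was also run on simulated counts. These were drawn independently for each library, without shared deviations of replicates, so that run says nothing about single calls here. Exact permutation tests used SciPy 1.17.1. Deviations of libraries with the same replicate number correlated at 0.179, 0.205, 0.419 and 0.505 (different numbers, -0.489 to 0.254). Libraries of equal number were treated as pairs, a choice that rests on these correlations since the labels state no pairing. OVA-T4 + TGFβ replicate 1 correlated more with OVA-T4 replicate 4 (0.246), and OVA-T4 + TGFβ replicate 2 more with OVA-T4 replicate 3 (0.239). The check therefore does not settle the pairs, and calls made only with the block rest on this choice. Alternatives were other pseudocounts, filters and scalings, a robust prior, the replicate block, leaving out each library and, chosen after seeing the data, limma voom on the solved reads.

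The 8 genes and all lists were chosen with earlier results of these data known. Named genes were the 8, other ligands and receptors with a mean of at least 1 FPKM, up to 2 called genes per direction of each other list, and the 2 nearest profiles per ligand. Genes named outside this rule (Cxcl9, the cytokines called with the block and single markers) were chosen after their values were seen. Some genes that the rule names are not reported here.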

Additional observations from a re-analysis of the deposited data

Results flagged for a closer look

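The level of Ccl3 in OVA-T4 replicate 4, at 56.6 FPKM, stood apart from the other 3 OVA-T4 libraries at 23.5, 23.9 and 29.0 FPKM. The gap to the nearest library was 0.832 of the whole range, just above Dixon's critical value for 4 samples. The test was made for 16 groups of values, and chance gives about 1 in 20. The same library held the highest value of all 8 ligands in its group. Without it the log2 fold change of Ccl3 was -0.81 (adjusted p = 0.0449 from limma), and it was still called.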

How the results depend on the processing

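Ccl1 and Xcl1 kept their direction and their call under all 18 alternatives, and Ccl3 kept both under 15. With no filter on low values Ccl3 stayed at -1.09 (adjusted p = 0.0628 from limma), the number of ligands called lower was 0, and 2 receptors were called lower. Leaving out each library in turn gave -1.34 to -0.81 for Ccl3 and 0 to 1 ligands lower, with the call lost without OVA-T4 + TGFβ replicate 2 or 3. With the replicate number as a block 2 ligands were lower, as Ccl4 (-0.36, adjusted p = 0.0233) was added, and the block changed no other call among the 8. Among the other chemokine ligands the block called 1 lower (Ccl9), as did quantile normalization, and leaving out a library 0 to 1, while 1 was higher with scaling by median of ratios, 1 with quantile normalization and 1 to 3 when a library was left out. The direction of 3 ligands without a call was not stable. Ccl5 was at -0.0343 with scaling by median of ratios, at -0.0888 with quantile normalization and at -0.0887 to 0.187 when a library was left out. Cxcl10 was at -0.081 with quantile normalization and at -0.0444 to 0.535 when a library was left out, and Ccl17 was at -0.35 to 0.24. The cause was not tested. Depth limits Ccl1 under OVA-T4 (2 to 31 reads), Ccl17 and Cxcl10 most.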
